A study of Homo sapiens with 4 samples.

Results

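Growth factor receptors of the receptor tyrosine kinase type and the neurotrophin receptor NGFR were examined in SK-MEL-28, an established human melanoma cell line. The 10 genes AXL, EGFR, ERBB2, ERBB3, KIT, MET, PDGFRB, FGFR1, IGF1R and NGFR were taken by their symbols from a table of 25268 gene symbols, and all 10 were found. RNA-Seq was done on SK-MEL-28 transduced with the empty lentiviral pTRIPZ vector (vector cells) or with pTRIPZ holding a Tet-inducible MYC gene (MYC-inducible cells). Both were selected with geneticin, and each was sequenced untreated and after 54 h of doxycycline (Dox). With 1 library for each of these 4 conditions there is nothing to measure the error between cultures, and p-values are not given. Values are FPKM, fragments scaled by the length of the transcript and the depth of the library, which allow different genes to be compared per length.

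Receptor tyrosine kinases are single-pass membrane proteins that bind a growth factor outside the cell and phosphorylate tyrosines inside it, which recruits adaptors and turns on the RAS–MAPK and PI3K–AKT pathways. In melanoma, these receptors are studied as bypass routes when the MAPK pathway is inhibited. KIT and ERBB3 belong to the melanocyte lineage, whereas AXL, EGFR, PDGFRB and NGFR are known as markers of dedifferentiated or neural crest-like melanoma cells. NGFR (p75, CD271) binds neurotrophins and has a death domain in place of a kinase.

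Changes are given on the scale of log2(FPKM + 0.1), one library minus another, which understates the change of low genes. A gene is said to rise or fall where this difference reached 1.5-fold (0.585 on the log2 scale) and its mean level was 1 FPKM or more. This filter left 11147 genes and 6 of the 10 receptor genes, namely ERBB2, ERBB3, MET, FGFR1, IGF1R and NGFR. Genes with very low values showed steps worth 1 fragment, from which the depth was approximated at 39100000 fragments in the vector cells without Dox, 35100000 with Dox, 42100000 in the MYC-inducible cells without Dox and 39300000 with Dox. The quartiles of this estimate over 53 genes were 32800000 and 40500000 for the first library, so the numbers of fragments given below are approximate. Errors are counting errors of 1 standard error on the log2 scale, or 95% exact binomial intervals of a ratio, and leave out differences between cultures.

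MYC itself had 58.3 FPKM in the vector cells without Dox and 54.8 with Dox, and 76.5 FPKM in the MYC-inducible cells without Dox and 87.1 with Dox. The table thus lists MYC only 1.14-fold higher with Dox in the MYC-inducible cells, under the 1.5-fold threshold, and already 1.31-fold higher there than in the vector cells without Dox. Between the Dox-treated cells of the 2 kinds the ratio was 1.59. The MYC-inducible library with Dox is therefore named by its label, and its changes are given as changes with Dox. By other measures, the paper reports that Dox raised MYC mRNA (RT–PCR) and E-box reporter activity in the MYC-inducible cells. The melanocyte identity of the cells was read from 8 markers (MITF, SOX10, PMEL, MLANA, TYR, TYRP1, DCT and S100B). None of these genes was at 0, and their summed level was 8433 to 8578 FPKM in 3 libraries and 4666 FPKM in the MYC-inducible cells with Dox. With Dox, all 8 were lower in the MYC-inducible cells and 5 fell at least 1.5-fold (PMEL, MLANA, TYR, TYRP1 and S100B), S100B by the most at a log2 change of -1.39. In the vector cells 0 of the 8 passed 1.5-fold. Of all 11147 genes, 5917 were lower and 8.85% fell with Dox in the MYC-inducible cells. In the vector cells 0.709% of all genes rose and 0.440% fell. Against the vector cells with Dox, 3 of the 8 were at least 1.5-fold lower in the MYC-inducible cells with Dox (PMEL, MLANA and S100B). The share of all genes lower there was 8.62%. In that comparison TYR differed by -0.55, TYRP1 by -0.15 and DCT by 0.07. TYRP1 was also lower with Dox in the vector cells, at a log2 change of -0.35. Markers of blood (PTPRC, CD3E), epithelial (KRT5, KRT14, CDH1) and endothelial cells (PECAM1, CDH5, VWF) were under 1 FPKM in every library, and KRT5 was at 0 in each. EPCAM rose from 0.726 to 2.71 FPKM with Dox in the MYC-inducible cells. It was under 1 FPKM in every other library, so it passed the filter only through the library where it was high. CD68, a lysosomal protein, had 204 to 273 FPKM, and LUM, a matrix proteoglycan, had 26.0 to 31.5 FPKM. The other fibroblast markers DCN, PDGFRA and COL1A1 were under 1 FPKM. In bulk RNA, fewer cells with a transcript and less of it per cell cannot be told apart.

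**Figure D1:**
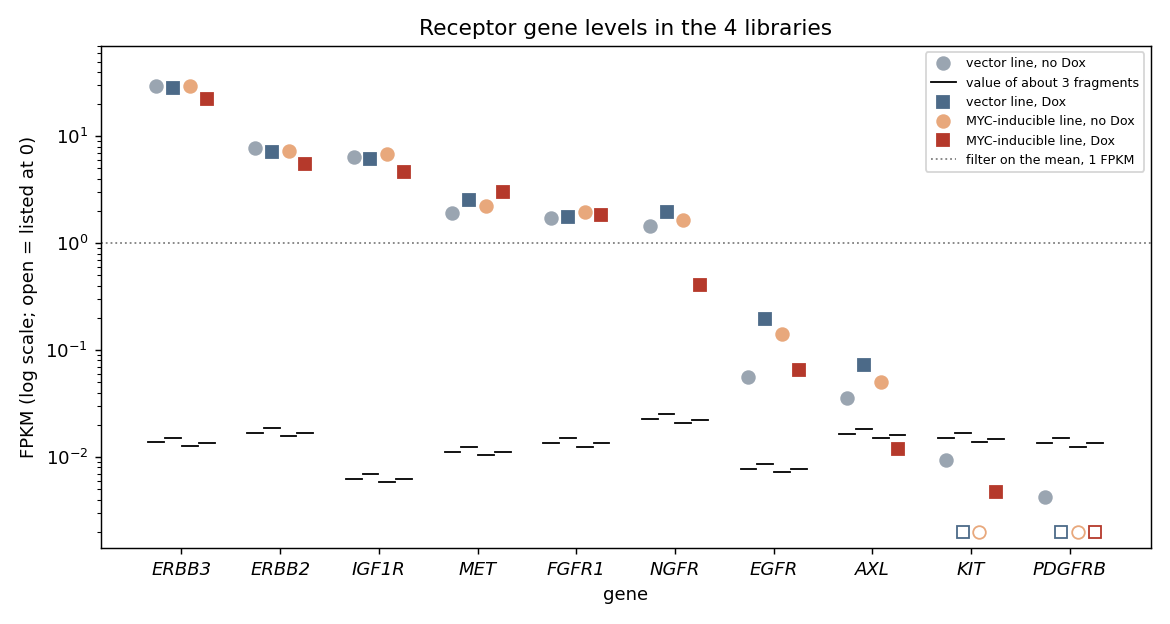
Levels of the 10 receptor genes (x axis, in order of mean level) in FPKM on a log axis, 1 point per library. Short black lines mark the value of about 3 fragments, open symbols are listed at 0 and drawn at the foot of the axis, and the dotted line is the filter of 1 FPKM. ERBB3 lies highest at 22.3 to 29.5 FPKM, and KIT and PDGFRB lie under 3 fragments in every library.

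ERBB3, the kinase-impaired member of the EGF receptor family that binds neuregulins and signals through its partners, had the highest level of the 10 genes. Its level was 29.5 FPKM in the vector cells without Dox, 28.2 FPKM with Dox, 29.5 FPKM in the MYC-inducible cells without Dox and 22.3 FPKM with Dox. The library of the MYC-inducible cells with Dox was the lowest of the 4, and the other 3 lay close together. The log2 change with Dox was -0.40 (counting error 0.0267) in the MYC-inducible cells and -0.07 (counting error 0.0263) in the vector cells, both under 1.5-fold. ERBB3 lies on chromosome 12 of GRCh37 from 56470583 to 56497289. ERBB3 made up 62.2% of the summed FPKM of the 9 receptor tyrosine kinases among the 10 genes in the vector cells without Dox and 59.7% in the MYC-inducible cells with Dox.

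ERBB2, the ligandless partner with which ERBB3 forms its most active dimer, followed at a lower level. It had 7.85 FPKM in the vector cells without Dox, 7.20 FPKM with Dox, 7.28 FPKM in the MYC-inducible cells without Dox and 5.50 FPKM with Dox. On the log2 scale the change was -0.40 (counting error 0.0591) in the MYC-inducible cells and -0.12 (counting error 0.0566) in the vector cells. ERBB2 and ERBB3 were each 1.32-fold lower in FPKM with Dox in the MYC-inducible cells, and the lowest library was the same for both. The annotation places ERBB2 on chromosome 17 of GRCh37 from 37844167 to 37886679, overlapping PGAP3 and MIEN1 on the other strand, and whether the counting used strand is not given in the sources used here.

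IGF1R, the receptor for insulin-like growth factors and a major input to PI3K–AKT signalling, was at a level like that of ERBB2. It had 6.35 FPKM in the vector cells without Dox, 6.17 FPKM with Dox, 6.78 FPKM in the MYC-inducible cells without Dox and 4.60 FPKM with Dox. IGF1R was below ERBB2 in each of the 4 libraries, although their ranges, 4.60 to 6.78 and 5.50 to 7.85 FPKM, overlapped. The log2 change was -0.55 (counting error 0.0384) in the MYC-inducible cells, just inside the 1.5-fold threshold, and -0.04 (counting error 0.0377) in the vector cells. Of the 11147 genes, 9.90% were lower by at least as much in the MYC-inducible cells. With the libraries set to equal FPKM sums, IGF1R passed 1.5-fold at a log2 change of -0.60. It lies on chromosome 15 of GRCh37 from 99191768 to 99507759.

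MET, the receptor for hepatocyte growth factor, was the only one of the 6 genes over the filter that was higher with Dox in the MYC-inducible cells. It had 1.91 FPKM in the vector cells without Dox, 2.55 FPKM with Dox, 2.23 FPKM in the MYC-inducible cells without Dox and 3.04 FPKM with Dox. Both libraries with Dox were above both libraries without it. The log2 change was 0.43 (counting error 0.0733) in the MYC-inducible cells and 0.39 (counting error 0.0827) in the vector cells, a difference between the cells of 0.04. In the vector cells 1.46% of all genes were higher by at least as much, against 11.1% in the MYC-inducible cells. MET lies on chromosome 7 of GRCh37 from 116312250 to 116438431. HGF, its ligand, was listed at 0 in 3 libraries and at 0.00836 FPKM in the MYC-inducible cells without Dox.

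Promoters are printed for MET, which was higher with Dox in both kinds of cells, and for IGF1R, the gene over the filter with an entry that had the lowest change with Dox in the MYC-inducible cells. RefSeq windows (GRCh38.p14 table) of 250 bases before to 50 bases after the start site were found for 7 of the 10 genes, which excludes ERBB3, FGFR1 and NGFR, and each was located in GRCh37 by its sequence. They were searched for CACGTG, the canonical E-box bound by MYC–MAX and MITF, for CATGTG, the other E-box form bound by MITF, and for TGACTCA, the AP-1 motif, on both strands. These motifs do not overlap one another in the windows below, where capitals mark a motif and the sequences are written 5′ to 3′ on the gene's strand.
MET, chr7:116312000-116312299, plus strand: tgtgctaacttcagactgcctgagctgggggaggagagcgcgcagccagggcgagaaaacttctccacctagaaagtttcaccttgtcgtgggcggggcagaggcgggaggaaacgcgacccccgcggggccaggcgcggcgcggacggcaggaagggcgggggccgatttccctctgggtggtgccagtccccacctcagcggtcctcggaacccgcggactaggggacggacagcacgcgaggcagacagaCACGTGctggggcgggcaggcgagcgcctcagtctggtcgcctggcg
IGF1R, chr15:99191518-99191817, plus strand: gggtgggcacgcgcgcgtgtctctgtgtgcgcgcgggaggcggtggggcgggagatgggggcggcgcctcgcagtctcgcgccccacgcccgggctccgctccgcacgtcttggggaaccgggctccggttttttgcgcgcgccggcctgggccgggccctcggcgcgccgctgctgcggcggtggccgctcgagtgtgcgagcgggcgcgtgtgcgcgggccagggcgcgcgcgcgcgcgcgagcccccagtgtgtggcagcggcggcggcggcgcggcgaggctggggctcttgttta

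MET held CACGTG once, with its first base 4 bases into the transcript counting the start site as 1. The motif was in none of the other 6 windows. Only 1 window per gene was searched, so any other start site of a gene is not covered. It was in 7.43% of 27305 promoters and in 10.7% of the 8381 promoters of genes over 1 FPKM. CATGTG and TGACTCA were in 0 of the 7 windows. CATGTG was in 11.2% of all promoters and in 6.4% of those of genes over 1 FPKM. For TGACTCA these shares were 4.92% and 2.99%. A match is a description of these letters and not of binding. The MET promoter was 69.3% GC and that of IGF1R 79.7% GC.

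FGFR1, a receptor for fibroblast growth factors, had similar levels in the 4 libraries. It had 1.74 FPKM in the vector cells without Dox, 1.75 FPKM with Dox, 1.95 FPKM in the MYC-inducible cells without Dox and 1.82 FPKM with Dox. On the log2 scale the change was -0.10 (counting error 0.0928) in the MYC-inducible cells and 0.01 (counting error 0.101) in the vector cells, each about as large as its counting error or smaller. FGFR1 was below MET in each of the 4 libraries, although their ranges, 1.74 to 1.95 and 1.91 to 3.04 FPKM, overlapped. It was above NGFR in 3 of the 4 libraries, so the order of FGFR1 and NGFR was not the same in each.

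NGFR showed the largest change of the 6 genes over the filter with Dox in the MYC-inducible cells and was the only one to pass 1.5-fold there. It lies on chromosome 17 of GRCh37 from 47572655 to 47592370. Its level was 1.45 FPKM in the vector cells without Dox, 1.96 FPKM with Dox, 1.65 FPKM in the MYC-inducible cells without Dox and 0.405 FPKM with Dox. These levels correspond to approximately 194, 234, 236 and 54.3 fragments in the same order, which puts the MYC-inducible library with Dox below the other 3 by far more than the sampling of fragments. NGFR fell 4.07-fold in FPKM in the MYC-inducible cells, a ratio of 0.246 with a counting interval of 0.179 to 0.330, and its log2 change was -1.79 (counting error 0.18).

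In the vector cells, NGFR was higher with Dox by a log2 change of 0.41 (counting error 0.132) and a ratio of 1.35 with a counting interval of 1.11 to 1.64, which is under the 1.5-fold threshold. The change in the MYC-inducible cells minus that in the vector cells was -2.20. The direct comparison of the Dox-treated cells, which uses the same MYC-inducible library with Dox, gave a log2 difference of -2.03 and a ratio of 0.207 with a counting interval of 0.15 to 0.277. Without Dox the cells differed by 0.17, with an interval of the ratio from 0.928 to 1.37 that includes 1. In the MYC-inducible cells 28 of the 11147 genes, or 0.251%, were lower with Dox by at least as much as NGFR. In the vector cells 151 genes, or 1.35%, were higher with Dox by at least as much as NGFR. The melanocyte markers were lower and EPCAM was higher with Dox in the MYC-inducible cells, and their part in the values of NGFR was not tested. NGFR-AS1 overlaps NGFR on the other strand, with which fragments could have been shared.

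**Figure D2:**
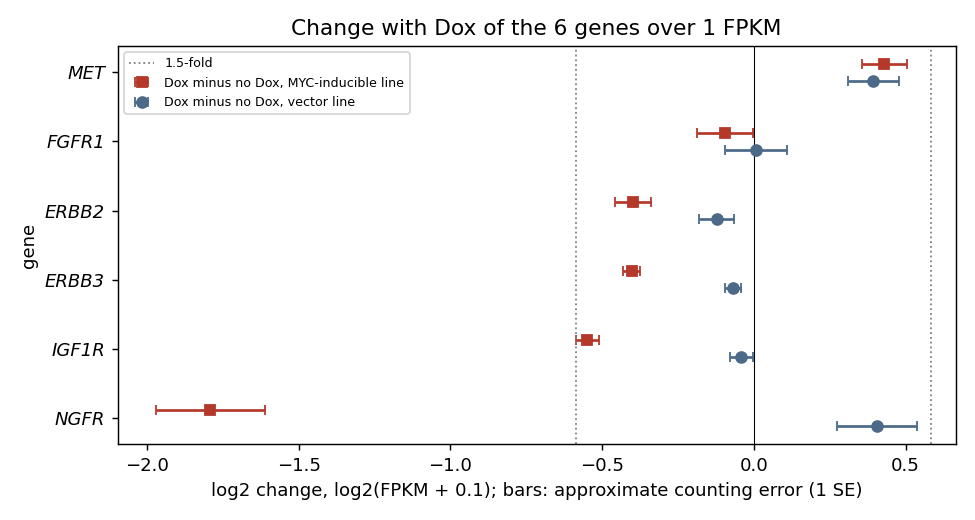
Change with Dox (x axis, difference of log2(FPKM + 0.1)) of the 6 receptor genes over 1 FPKM (y axis), with approximate counting errors of 1 standard error and dotted lines at 1.5-fold. NGFR is at -1.79 in the MYC-inducible cells and 0.41 in the vector cells, and MET is at 0.43 and 0.39.

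Among the 6 receptor genes over the filter, 1 fell and 0 rose with Dox in the MYC-inducible cells, beside 8.85% and 5.90% of all 11147 genes. In the vector cells 0 of 6 rose and 0 fell, beside 0.709% and 0.440% of all genes. Between the untreated cells of the 2 kinds 0 of 6 were at least 1.5-fold higher and 0 lower in the MYC-inducible cells, beside 0.592% and 0.287%. Between the Dox-treated cells 1 of 6 was lower and 0 were higher in the MYC-inducible cells, beside 8.62% and 6.50%. With so few genes these counts do not set the receptors apart from the background. The 6 genes had a median log2 change of -0.40 in the MYC-inducible cells and -0.02 in the vector cells, beside -0.03 and 0.01 over all genes. With Dox in the MYC-inducible cells 5 of the 6 were lower, beside 5917 of all 11147 genes.

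Between the untreated cells of the 2 kinds, the 6 genes differed by log2 values from -0.11 for ERBB2 to 0.21 for MET. The levels of ERBB3 in these libraries were both 29.5 FPKM, and its difference was 0.00. The robust SD of this difference over all genes was 0.11, which describes the spread of genes within a pair of libraries and not the error of a replicate.

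EGFR, the receptor for EGF and TGFA, was below the filter in each library. It had 0.0565 FPKM in the vector cells without Dox, 0.195 FPKM with Dox, 0.140 FPKM in the MYC-inducible cells without Dox and 0.0649 FPKM with Dox, which correspond to approximately 21.9, 67.8, 58.5 and 25.3 fragments. The vector cells with Dox and the MYC-inducible cells without Dox were the higher libraries, so the direction with Dox differed between the cells. The ratio of FPKM with Dox to without it was 3.45 (counting interval 2.10 to 5.85) in the vector cells and 0.463 (0.276 to 0.749) in the MYC-inducible cells, and the untreated cells of the 2 kinds differed by a ratio of 2.48 (1.47 to 4.19). The difference between the untreated cells was thus of the size of the change with Dox, and no replicate separates these values from differences between cultures. EGFR lies on chromosome 7 of GRCh37 from 55086710 to 55279321, and EGFR-AS1 overlaps it on the other strand.

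AXL, a receptor of the TAM family that is bound by GAS6, was lower still. It was listed at 0.0359, 0.0733, 0.05 and 0.0119 FPKM in the vector cells without and with Dox and the MYC-inducible cells without and with Dox, in that order. These values rest on approximately 6.62, 12.1, 9.93 and 2.21 fragments. The ratio with Dox was 0.238 in the MYC-inducible cells (counting interval 0.0228 to 1) and 2.04 in the vector cells (0.694 to 5.73), so a change of AXL was not detectable at this depth in either. Between the Dox-treated cells of the 2 kinds the ratio was 0.162 (0.0161 to 0.665), on approximately 2.21 and 12.1 fragments. AXL lies on chromosome 19 of GRCh37 from 41725128 to 41767671.

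KIT, the receptor for stem cell factor and a gene of the melanocyte lineage, was listed at 0.00944 FPKM in the vector cells without Dox, at 0.00470 FPKM in the MYC-inducible cells with Dox and at 0 in the other libraries. The nonzero values correspond to approximately 1.90 and 0.952 fragments. PDGFRB, a receptor for platelet-derived growth factors, was listed at 0.00426 FPKM in the vector cells without Dox, approximately 0.950 fragments, and at 0 in the other 3 libraries. A count of 0 allows up to 3 fragments, which are worth 0.0138 to 0.0166 FPKM for KIT and 0.0125 to 0.0150 FPKM for PDGFRB. No comparison of these genes was possible at this depth, although the lineage factors MITF (67.2 to 90.0 FPKM) and SOX10 (156 to 197 FPKM) were abundant. KIT lies on chromosome 4 of GRCh37 from 55523434 to 55606949 and PDGFRB on chromosome 5 from 149493402 to 149535435. KITLG, which encodes stem cell factor, had 1.68 to 2.16 FPKM.

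Ligands of the receptors were examined as a list of 30 genes, of which 9 passed the filter. In the MYC-inducible cells 4 of the 9 fell with Dox and 0 rose, and the median of their log2 changes was -0.44, whereas in the vector cells 0 fell, 0 rose and the median was -0.11. The counts and medians of this list and of those that follow stand beside 8.85% of all genes falling, 5.90% rising and a median of -0.03 in the MYC-inducible cells, and no list was tested. GAS6, the vitamin K-dependent ligand of AXL, MERTK and TYRO3, had 2.65 and 2.45 FPKM in the vector cells without and with Dox and 2.92 and 1.04 FPKM in the MYC-inducible cells. It fell 2.81-fold in the MYC-inducible cells, a log2 change of -1.41 (counting error 0.152). GAS6-AS1 overlaps it on the other strand.

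PROS1, the other TAM ligand and also an anticoagulant, had 32.1 and 30.7 FPKM in the vector cells and 31.5 and 18.5 FPKM in the MYC-inducible cells without and with Dox. Its log2 change was -0.77 (counting error 0.0361) in the MYC-inducible cells and -0.06 in the vector cells. The EGFR ligands TGFA and EGF fell as well in the MYC-inducible cells, by log2 changes of -0.74 (2.86 to 1.67 FPKM) and -0.68 (1.39 to 0.830 FPKM). Against the vector cells with Dox these differences were -0.27 and -0.49, under 1.5-fold. TGFA was also lower in the vector cells with Dox, at a change of -0.29, and was the ligand among these 4 with the largest vector change. HBEGF, a further EGFR ligand, had a change of 0.07, and NRG1, the neuregulin that binds ERBB3, had a change of -0.44, from 2.04 to 1.47 FPKM, and passed 1.5-fold only against the vector cells with Dox, at -0.61.

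The other 49 receptor tyrosine kinases on the list included 13 over the filter. Of these, 2 rose and 3 fell with Dox in the MYC-inducible cells, with a median log2 change of 0.00, and 1 rose and 0 fell in the vector cells. Over all 58 receptor tyrosine kinases listed, including the 9 above, the summed FPKM was 154 and 149 in the vector cells and 161 and 148 in the MYC-inducible cells without and with Dox. RYK, a Wnt co-receptor with an inactive kinase, had the highest level at 42.1 to 45.7 FPKM, above ERBB3.

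FGFR4, a relative of FGFR1, and EPHA3 were the 2 of these 13 that rose in the MYC-inducible cells, by ratios of FPKM of 1.97 and 2.02. FGFR4 had 4.31 and 5.04 FPKM in the vector cells and 4.24 and 8.37 FPKM in the MYC-inducible cells without and with Dox, log2 changes of 0.22 (counting error 0.0864) and 0.96 (counting error 0.0748). EPHA3, an ephrin receptor, rose in both kinds of cells, from 0.661 to 1.09 FPKM in the vector cells (0.64) and from 0.902 to 1.82 FPKM in the MYC-inducible cells (0.94). It reached the mean of 1 FPKM only through the MYC-inducible library with Dox, so its count among the risen genes depends on that library. The ephrin receptors EPHB1 and EPHA4 fell in the MYC-inducible cells, from 2.28 to 0.997 FPKM (-1.12, counting error 0.117) and from 2.48 to 1.28 FPKM (-0.90, counting error 0.0921), with changes of -0.14 and -0.17 in the vector cells. EPHB1 was 0.34 higher in the untreated MYC-inducible cells than in the untreated vector cells.

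The AXL relatives MERTK and TYRO3 were well above AXL. MERTK, also a receptor of GAS6 and PROS1, had 4.81 and 4.17 FPKM in the vector cells and 5.81 and 3.83 FPKM in the MYC-inducible cells without and with Dox. Its log2 change of -0.59 in the MYC-inducible cells only just passed 1.5-fold, and against the vector cells with Dox the difference was -0.12. TYRO3, named after its values were seen, had 10.2 to 12.5 FPKM and a change of 0.00 in the MYC-inducible cells.

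**Figure D3:**
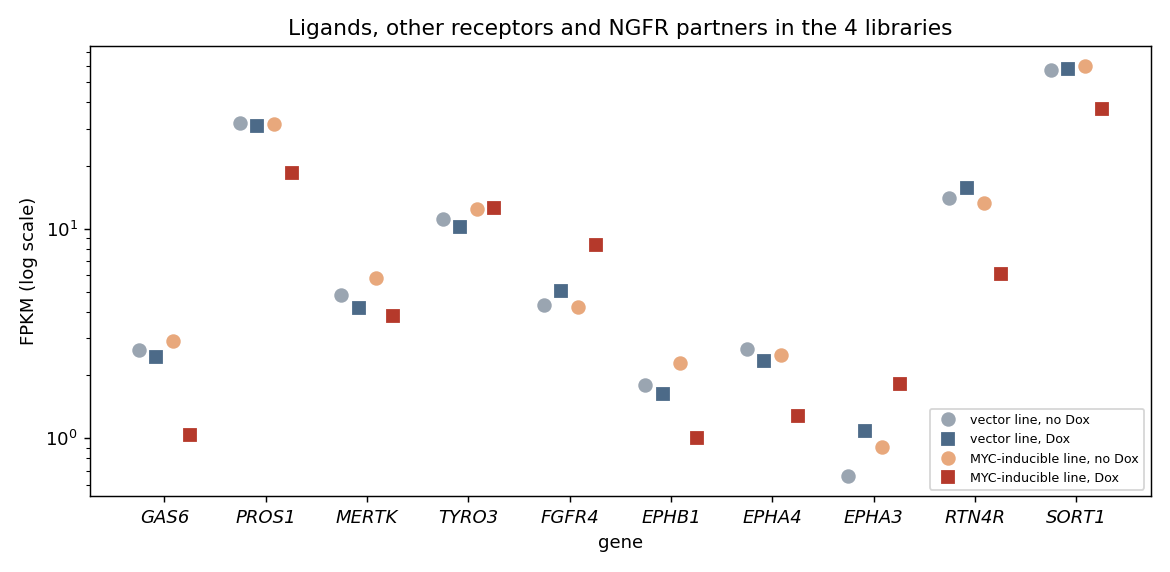
Levels in FPKM (log axis) of 2 TAM ligands, 6 other receptor tyrosine kinases and 2 partners of NGFR in each of the 4 libraries. GAS6, PROS1, EPHB1, EPHA4, RTN4R and SORT1 are lowest in the MYC-inducible cells with Dox, and FGFR4 and EPHA3 are highest there.

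Partners of NGFR were a list of 13 genes, of which 10 passed the filter. With Dox in the MYC-inducible cells 3 fell and 0 rose, with a median log2 change of -0.10, and 0 changed 1.5-fold in the vector cells. RTN4R, the Nogo receptor that signals with NGFR in neurons, had 14 and 15.6 FPKM in the vector cells and 13.3 and 6.10 FPKM in the MYC-inducible cells without and with Dox, a log2 change of -1.11 (counting error 0.0788) in the latter. MAGED1, an adaptor that binds the intracellular part of NGFR, went from 117 to 65.0 FPKM in the MYC-inducible cells, a change of -0.84. SORT1 (sortilin), the co-receptor of NGFR for proneurotrophins, went from 59.5 to 37.2 FPKM, a change of -0.68. In the vector cells these changes were 0.16, -0.03 and 0.01.

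Adaptors and brakes of receptor signalling formed a list of 24 genes, of which 20 passed the filter. SOS2, a RAS exchange factor, was the only one that fell with Dox in the MYC-inducible cells, from 3.51 to 2.08 FPKM (-0.73, counting error 0.0813), and 0 rose. The 20 genes had a median log2 change of -0.06 in the MYC-inducible cells and 0.06 in the vector cells, where 0 changed 1.5-fold. CBLB, a ubiquitin ligase that takes activated receptors off the surface, passed 1.5-fold only between the Dox-treated cells of the 2 kinds, at a log2 difference of -0.67.

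Transcription factors of melanoma states were a list of 20 genes, of which 17 passed the filter. The median of their log2 changes was -0.38 in the MYC-inducible cells and -0.02 in the vector cells. In the MYC-inducible cells 15 were lower with Dox, but 1 passed 1.5-fold down and 1 up. Of all 11147 genes, 5917 were lower there. JUN, an AP-1 subunit, fell from 3.87 to 2.27 FPKM in the MYC-inducible cells (-0.75, counting error 0.101) and had 3.55 and 4.54 FPKM in the vector cells (0.35). SOX2, a neural progenitor factor, rose from 0.939 to 2.07 FPKM in the MYC-inducible cells (1.06, counting error 0.162). SOX2 was under 1 FPKM in every other library, so it passed the filter only through the library where it was high. It was already higher in the untreated MYC-inducible cells than in the untreated vector cells, at 0.505 FPKM in the latter, a difference of 0.78, and it overlaps the transcript SOX2-OT. EGR1, an immediate-early factor, rose in the vector cells from 13.4 to 22.6 FPKM (0.75) and had 14.2 and 13.3 FPKM in the MYC-inducible cells. TEAD4, a partner of YAP, was higher in the MYC-inducible than in the vector cells with Dox by 0.59.

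**Figure D4:**
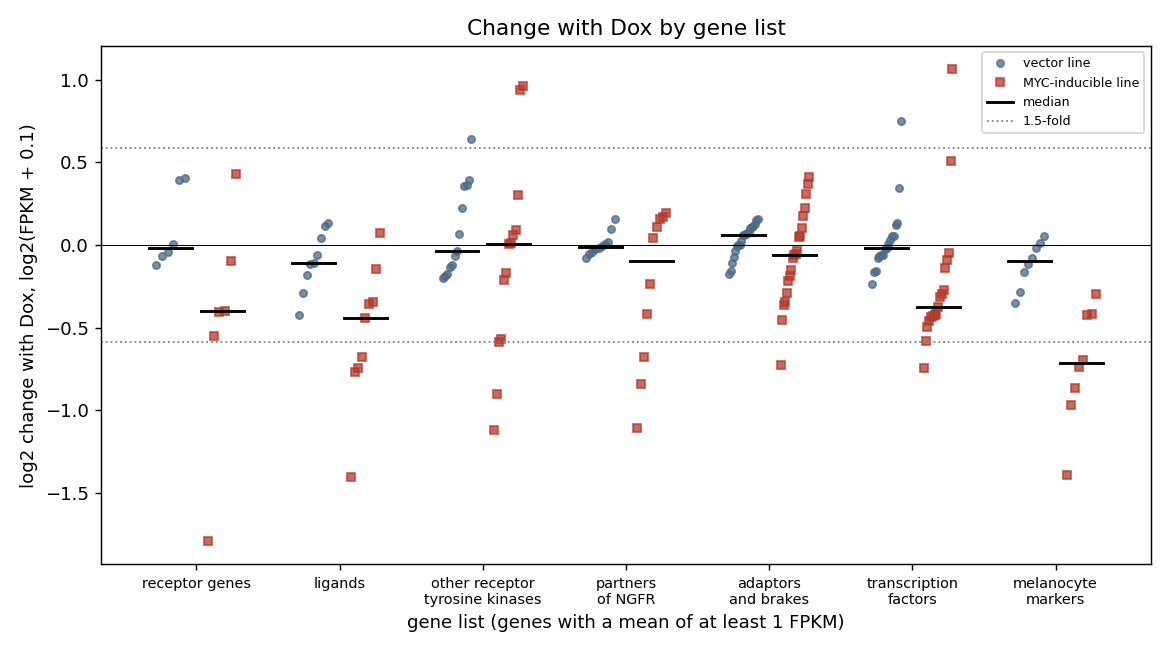
Change with Dox (y axis, difference of log2(FPKM + 0.1)) of the genes over 1 FPKM in each list (x axis), 1 point per gene, with black bars at the list medians and dotted lines at 1.5-fold. The medians of the receptor genes are -0.40 in the MYC-inducible cells and -0.02 in the vector cells, and those of the ligands are -0.44 and -0.11.

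The genes whose levels over the 4 libraries were most like those of NGFR were LGALS1, CST1 and RDH5, at Euclidean distances of 0.203, 0.236 and 0.241 between the centred log2(FPKM + 0.1) values of the 4 libraries. LGALS1 (galectin-1) had 5064 and 5659 FPKM in the vector cells and 4843 and 1414 FPKM in the MYC-inducible cells without and with Dox. CST1, a cystatin, had 81.6 and 95.4 FPKM and 85.4 and 29.0 FPKM in the same order. RDH5, a retinol dehydrogenase, had 2.66 and 3.26 FPKM and 2.52 and 0.621 FPKM in the same order. Each of these genes was lowest in the MYC-inducible cells with Dox and highest in the vector cells with Dox, as was NGFR. Because they were picked for the closeness of their levels to those of NGFR, this is not a separate result. The likeness describes 4 libraries and has no test.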

How the data were processed

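RNA-Seq of 4 libraries, 1 per condition, was analysed. The values that the authors deposited are FPKM, listed by symbol. The submitters' processing notes name TopHat2 2.0.14, Cufflinks and the build hg19 (GRCh37), and the annotation is not given in the sources used here. The table had 27032 rows. A row with no gene name (1) was left out and 609 symbols with several rows were summed, none of them a receptor gene. FPKM are not counts and each condition has 1 library, so no test was made. Fragments per gene were approximated from the depth (53 genes with 1 annotated transcript of at least 1500 bases) and the length of the canonical transcript in GENCODE release 44 on GRCh37.

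The receptor genes and the lists of related genes were chosen with earlier results of these data known. Named from each list were genes over the filter that changed at least 1.5-fold in a comparison (at most 5 per comparison), beside the receptor genes and the 3 genes most like the receptor gene that changed most. HGF, KITLG, HBEGF, RYK, TYRO3 and DDR2 were named in addition, after their values were seen, for their relation to a receptor gene or their level. The calculation was tested on simulated data that held planted 2-fold changes and the sampling of fragments. Differences between cultures were not simulated, so the simulation does not show how reliable 1.5-fold calls from single libraries are. Alternatives were pseudocounts of 1 and 0.01, no filter, a filter at 5 FPKM, 3 other scalings, the largest row of each symbol, a 2-fold threshold and the vector cells with Dox as reference. The software was pandas 2.3.3 with numpy 2.4.6 under Python 3.11.15, and plots were drawn with matplotlib 3.10.9.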

Additional observations from a re-analysis of the deposited data

Results flagged for a closer look

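For 7 genes over the filter among the receptor genes and lists, the library with Dox was higher in one kind of cells and lower in the other, and the changes differed by at least 1.5-fold. Each has 1 library per condition, so these differences between the cells were not tested. The share of all genes over the filter that meet the same rule was not counted. It is therefore not known whether 7 is more than the background would give. For NGFR the log2 change in the MYC-inducible cells minus that in the vector cells was -2.20. The same difference was -1.27 for RTN4R, -1.09 for JUN, -0.84 for EGR1, -0.72 for EGF, -0.69 for SORT1 and -0.61 for DDR2, a collagen receptor. For EGR1 and DDR2 the larger part came from the vector cells, at 0.75 and 0.40 (log2). For EGF and SORT1 the vector changes were 0.04 and 0.01 (log2), near their counting errors of 0.112 and 0.0167, so for them the opposite direction rests on values near 0.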

How the results depend on the processing

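No paired analysis was possible because there was 1 library for each condition. NGFR was lower with Dox in the MYC-inducible cells and past 1.5-fold under each alternative that gave it a value, from -2.03 against the vector cells with Dox to -0.91 with a pseudocount of 1. At the filter of 5 FPKM, NGFR, MET and FGFR1 were left out and 0 receptor genes passed 1.5-fold. After rescaling to the same sum 2 did, IGF1R being the other one. Without the filter 1 receptor gene, EGFR, passed 1.5-fold in the vector cells. FGFR1 changed sign to 0.06 against the vector cells with Dox, within its counting error. ERBB2 and ERBB3 kept their direction in the alternatives run. Over all alternatives, 9 values of single receptor genes moved by more than 0.11 (the robust SD over genes in the vector cells) and 87 did not. The 87 include values that could not move. Dropping or raising the filter leaves the change of a single gene as it is. Taking the largest row does so too, because no receptor gene had several rows. For list medians and counts, 34 moved by more than that or by over 1.5 times and 143 did not. The median of the receptor genes in the MYC-inducible cells was -0.45 to -0.36, whereas those of the adaptors (-0.10 to 0.04) and of the other receptor tyrosine kinases (-0.07 to 0.06) took both signs.

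In the MYC-inducible cells, the numbers rising and falling were 1138 and 1748 with no filter, 436 and 549 at 5 FPKM, then 117 and 228 when 2-fold was asked. In the vector cells the counts were 529 and 387, 25 and 8, and 28 and 15 in the same order, and 43 and 22 with a pseudocount of 1. Between the untreated cells they were 501 and 347, 16 and 10, 24 and 18, and 34 and 21. The filters also change the number of genes. The ligand median in the MYC-inducible cells was -0.30 with a pseudocount of 1, -0.15 without the filter and -0.27 against the vector cells with Dox, and in the vector cells 0.00 without the filter and 0.026 at 5 FPKM. The median of the NGFR partners was 0.11 without the filter, -0.46 at 5 FPKM and -0.21 against the vector cells with Dox, and that of the transcription factors was -0.26 against that reference. The cause of the other shifts was not tested. Depth limits AXL, KIT and PDGFRB most.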
